A study of Mus musculus with 16 samples.

Results

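The genes described here encode contractile and actin-binding proteins of smooth muscle and of non-muscle cells. They were measured in C2C12 cells, a mouse myoblast line long in culture, whose cells fuse and form myotubes once serum is lowered. The rows of the deposited expression table were selected by gene name, and all 10 names were found among 35275 genes: Acta2, Actg2, Tagln, Cnn1, Cnn2, Myl9, Tpm4, Myh9, Myh11 and Lmod1. Of these, 9 passed the filter on low values (a mean of at least 0.5 FPKM over all libraries, which 11832 genes passed), and Myh11 did not. FPKM divides each gene's fragments by its length in kilobases and by the library's depth, so levels of different genes can be compared per length.

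The 16 poly(A) RNA libraries came from 4 lines. Per the labels, 2 were control populations of wild-type genotype, and 2 were clones (tKO) in which 3 genes are knocked out, miR-206 together with both copies that encode miR-1a (miR-1a-1 and miR-1a-2). All derive from PAX7-negative C2C12 cells. Each line was sampled while growing in medium with fetal bovine serum (GM) and after 3 days in low horse serum, when the cells differentiate (DM3). Titles also carry a replicate tag, BR1 or BR2, whose meaning the labels do not spell out, and each genotype at each stage, 4 groups in all, held 2 lines with both tags, or 4 libraries. Genotype thus rests on 2 clones against 2 populations. The labels do not say that the libraries of a line came from separate cultures, so p-values measure only the spread between these libraries.

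Libraries held 22642563 to 56585952 fragments. Replicate libraries of a group differed by more than counting noise in all 24 pairs (chi-square per degree of freedom 20.5 to 256), so none was treated as a duplicate. The table's row named mmu-mir-133b (ENSMUSG00000099906), a long non-coding RNA gene whose listed span (chr1:20679023-20684298) includes miR-206, was at 59 to 608 fragments in the DM3 libraries of control cells and at 14 to 152 in those of the tKO clones. Whether this row lies outside the deleted part was not examined here, so it does not check the knockout by itself. Of 10 myoblast and myotube markers, Myog, Myod1, Tmem8c, Ckm and Myh3 were under 0.5 FPKM in every GM library, and all 10 averaged at least 0.5 FPKM in both DM3 groups.

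Smooth muscle cells contract with their own actin isoforms, Acta2 and Actg2, and their own myosin heavy chain, Myh11. Thin filaments carry tropomyosin, calponin and transgelin, while leiomodin nucleates actin filaments. Non-muscle cells use Myh9, Tpm4 and Cnn2 in stress fibres and the cell cortex. Proliferating myoblasts are known to carry stress fibres of this kind, which give way to sarcomeres built from skeletal isoforms during differentiation. Many of the smooth muscle genes are controlled through CArG boxes, binding sites of serum response factor (Srf), together with its coactivators myocardin (Myocd) and the myocardin-related factors Mkl1 and Mkl2.

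Because the knockout removes microRNAs, the 3′ UTRs were searched for matches to their shared seed. The mature miR-206-3p sequence is shown with its seed (bases 2 to 8) in capitals, as listed by RefSeq (GRCm38.p6, chr1:20679055-20679076, plus strand):
miR-206-3p: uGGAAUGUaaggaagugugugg
The other family member, miR-1a-3p, is named only. Sites searched on the transcript strand of the longest annotated 3′ UTR (GENCODE release M21) were ACATTCCA (8 bases), ACATTCC (7 bases, positions 2 to 8) and CATTCCA (7 bases, positions 2 to 7 followed by A). The shorter sites lie within the longest one, and each stretch was counted as its longest match. Tpm4, Cnn2 and Tagln held such a match. Tpm4, encoding a non-muscle tropomyosin, had 3 in a 3′ UTR of 1318 bases. The 8-base match (chr8:72152891-72152898, plus strand) and a 7-base match share a base, so both are shown in 1 window (chr8:72152880-72152909). The stretches below are from GENCODE's transcript sequences on GRCm38, with the seed matches in capitals, and are shown because they set Tpm4 apart from the members without a match:
Tpm4, 8-base and overlapping 7-base match: ctcacactgaaACATTCCACATTCCccagc
Tpm4, upstream 7-base match, chr8:72152368-72152374: attgtctttaagCATTCCAagcgagaatgc
Cnn2, 7-base match, chr10:79995398-79995404, plus strand: aagagtaaagtACATTCCtgagtttggccg
Tagln, 7-base match, chr9:45929904-45929910, minus strand: cactcctgttagCATTCCAggaaccctgag
The 3′ UTRs of Acta2, Actg2, Cnn1, Myl9, Myh9, Myh11 and Lmod1 held none of these letters. Among 10806 tested genes with a 3′ UTR, 4.46% had the 8-base match, and 18.95% had a match of any of the 3 kinds. A match is a description of the sequence, not evidence of a functional site.

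The members spanned the whole range of expression. Acta2, smooth muscle alpha actin, was the most abundant transcript of all genes in both tKO GM libraries of BR2 (rank 1 by FPKM) and ranked no lower than 86 in any library. Myh9, Tpm4 and Cnn2 were between 304 and 685 FPKM in GM libraries, with Actg2 (smooth muscle gamma actin) at 56.9 to 1154 and Tagln (transgelin) at 98.4 to 675. Myl9, a regulatory myosin light chain of smooth muscle and non-muscle cells, was at 9.23 to 141 FPKM there. Cnn1 (smooth muscle calponin) and Lmod1 (leiomodin 1) stayed between 0.598 and 15.9 FPKM in GM. Myh11 was close to absent: it had 0 to 42 fragments a library and at most 0.206 FPKM. It had more than 9 fragments in 4 libraries, the BR2 libraries of tKO GM and tKO DM3. At a count of 0, seen in control GM line 1 BR1 and control DM3 line 2 BR1, up to 3 fragments are allowed, or 0.0129 and 0.0142 FPKM at their depths (counting error only). The cells had high smooth muscle actin with almost no smooth muscle myosin heavy chain.

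**Figure D1:**
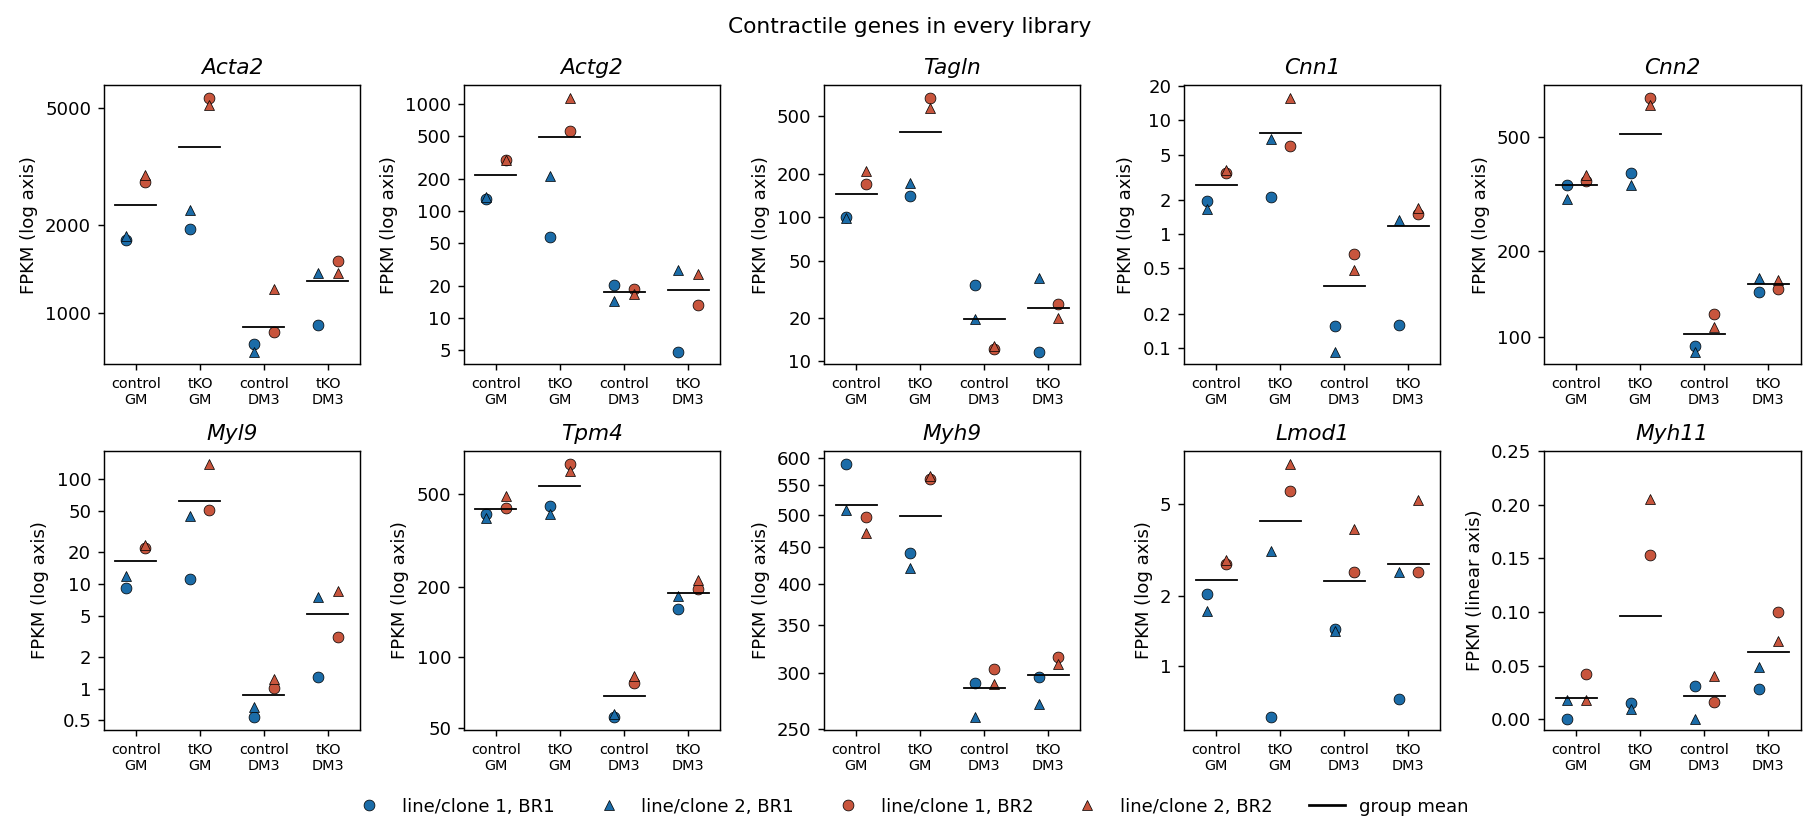
FPKM of the 10 genes in each of the 16 libraries (log axis, except a linear axis for Myh11), by group; circles are line or clone 1, triangles line or clone 2, blue BR1, red BR2, and bars are means of 4 libraries. Most genes drop from GM to DM3, Tpm4 is separated by genotype in DM3, and red points lie above blue ones for Acta2 in both GM groups.

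Differentiation lowered 8 of the 9 tested genes in control cells, against a background of 38.3% of all tested genes that were lower in DM3. In tKO cells 8 of 9 were lower, against 36%. The members were chosen with earlier results of these data known, so these shares describe the list and do not test it. Falls are in differences of mean log2(FPKM + 1), tested with limma and adjusted over all tested genes by the Benjamini-Hochberg method. The members' median difference was -1.73 in control cells and -1.67 in tKO cells, beside medians of -0.15 and -0.12 over all tested genes. In bulk RNA, fewer cells of a type and less RNA per cell cannot be told apart. The gene that did not pass in either genotype was Lmod1.

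Among the actins, Acta2 was at 1771, 1830, 2798 and 2951 FPKM in control GM and at 778, 735, 860 and 1203 FPKM in control DM3. In tKO cells it was at 1932, 2239, 5436 and 5142 FPKM in GM and at 908, 1367, 1500 and 1370 FPKM in DM3 (here and below in the order line 1 BR1, line 2 BR1, line 1 BR2, line 2 BR2). The stages did not overlap in either genotype. Acta2 fell by 1.37 (SE 0.31, adjusted p = 0.00111) in control and by 1.39 (SE 0.31, adjusted p = 0.000999) in tKO cells. Without control line 1 the control fall of 1.30 had an adjusted p of 0.0545. Even in DM3, Acta2 was at 735 FPKM or more in each library.

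Actg2 fell in both genotypes. Its control GM values of 130, 135, 301 and 300 FPKM went to 20.2, 14.4, 18.8 and 16.9 FPKM in DM3, a 12.3-fold lower mean. In tKO cells the values were 56.9, 214, 565 and 1154 FPKM in GM and 4.86, 28.4, 13.2 and 26.0 FPKM in DM3, a 27.4-fold lower mean. The differences were -3.44 (SE 0.70, adjusted p = 0.000462) and -4.23 (SE 0.70, adjusted p = 7.03e-05).

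The actin-binding genes Tagln, Cnn1 and Cnn2 fell as well. Tagln was at 101, 98.4, 170 and 211 FPKM in control GM and at 33.7, 19.7, 12.2 and 12.8 FPKM in control DM3, a difference of -2.86 (SE 0.49, adjusted p = 9.89e-05). In tKO cells Tagln went from 141, 174, 675 and 570 to 11.7, 37.9, 25 and 19.8 FPKM, a difference of -3.78 (SE 0.49, adjusted p = 6.26e-06). Cnn2, the calponin of non-muscle cells, was on average 3.32-fold lower in DM3 in control cells and 3.35-fold lower in tKO cells, with adjusted p of 1.10e-06 and 1.50e-06. Cnn1, at group means of 2.68 ± 1.00 (SD, n = 4) FPKM in control GM and 0.349 ± 0.272 in control DM3, rested on as few as 7 fragments a library in control DM3. Its fall of 1.43 in control cells (adjusted p = 0.00449) was not called without control line 1 (adjusted p = 0.0795) or without control line 2 (adjusted p = 0.0892).

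For the motor genes, both the light chain Myl9 and the heavy chain Myh9 fell. Myl9 was at 9.23, 11.8, 21.9 and 23.6 FPKM in control GM and at 0.534, 0.668, 1.02 and 1.26 FPKM in control DM3, a 19.2-fold lower mean. In tKO cells the mean was 12.1-fold lower in DM3. Myh9, the heavy chain of non-muscle myosin IIA, was 1.80-fold lower in DM3 in control cells and 1.67-fold lower in tKO cells, and its stage differences were -0.85 (SE 0.12, adjusted p = 1.28e-05) and -0.73 (SE 0.12, adjusted p = 5.66e-05). Lmod1 means were 2.34 ± 0.55 (SD, n = 4) FPKM in control GM and 2.32 ± 1.18 in control DM3, a difference of -0.06 with a 95% interval of -0.99 to 0.88 and an adjusted p of 0.922. In tKO cells the difference was -0.37 (-1.30 to 0.56, adjusted p = 0.482), so a change of either sign remained within the interval.

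Skeletal counterparts moved the other way. From a list of 10 skeletal muscle actin, light chain, troponin and related genes, 9 rose in control cells, where 23.2% of all tested genes rose, and 10 in tKO cells, where 24.9% rose, with no falls. Of these 10, 6 (Actc1, Myl1, Myh3, Ckm, Lmod2 and Lmod3) had GM means under 0.5 FPKM in both genotypes. They passed the filter only through DM3, so they had to differ and their rise supports nothing. The counts of 9 and 10 include them, so setting these counts against all tested genes supports nothing either. Acta1, Mylpf, Myl4 and Tnnt3 did not depend on DM3 for the filter, and all were among the 10 that rose in tKO cells. How the 9 control calls divide between these genes and the 6 is not given here. Acta1, skeletal alpha actin, went from 8.48 ± 0.75 (SD, n = 4) in GM to 457 ± 154 FPKM in DM3 in control cells. In tKO cells it went from 31.3 ± 28.1 to 404 ± 311 FPKM. Myl1, a fast light chain and 1 of the 6, went from 0.348 ± 0.512 to 256 ± 66.7 FPKM in control cells. Despite the rise of Acta1, Acta2 kept the larger share of actin transcripts. Of the summed FPKM of the 6 actin genes it held 34.4% ± 4.3 (SD, n = 4) in control DM3, where Acta1 held 17.8% ± 5.9. In tKO DM3 the shares were 40.6% ± 3.5 for Acta2 and 13.7% ± 11.4 for Acta1. That Acta1 mean covers a split by tag, with 25.8% and 21.1% in the BR1 libraries and 3.24% and 4.86% in the BR2 libraries. The cause of the split was not tested. The coding sequences of Acta2 and Acta1 were 85.4% identical, with no identical stretch of 75 bases, and the read length behind the table is not given in the sources used here.

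**Figure D2:**
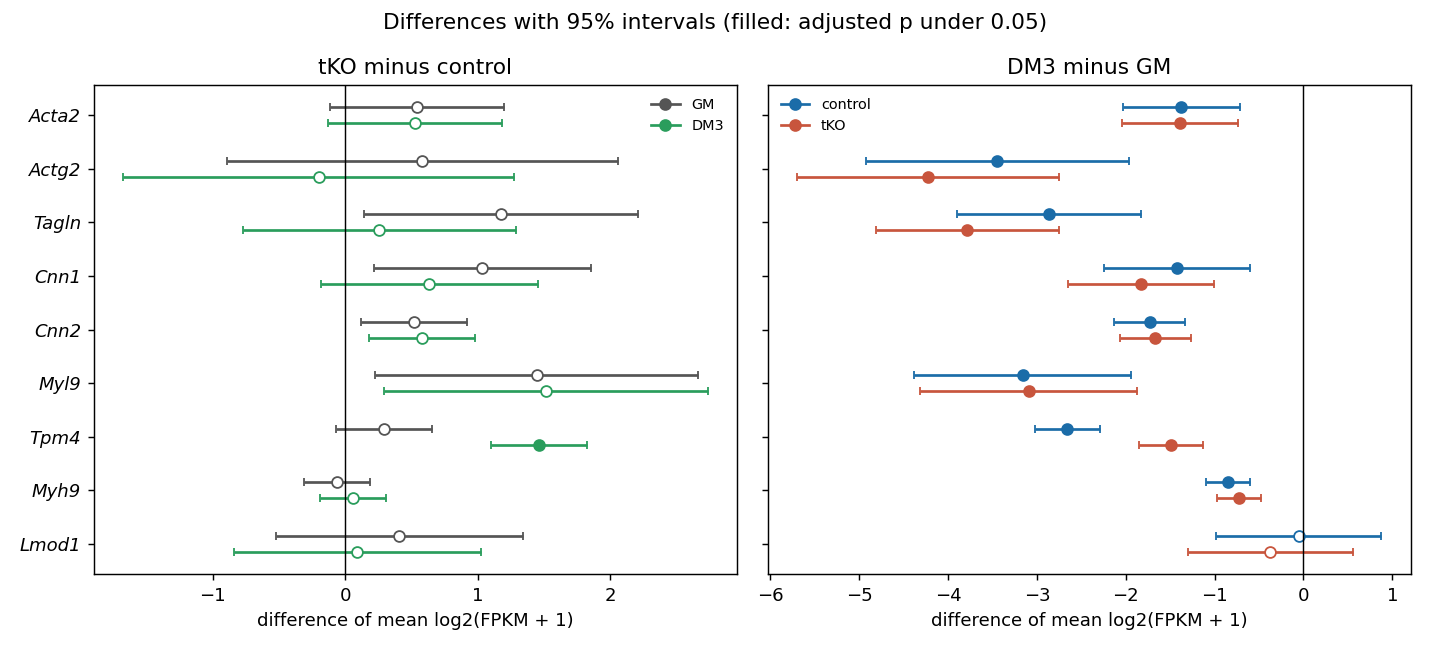
Differences of mean log2(FPKM + 1) for the 9 tested genes, with 95% intervals from limma; left, tKO minus control in GM (grey) and DM3 (green), and right, DM3 minus GM in control (blue) and tKO (red). Filled points passed an adjusted p of 0.05: all genes but Lmod1 on the right, and Tpm4 in DM3 on the left.

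In the main fit, which has no term for the tag, Tpm4 was the member called by genotype. In DM3 it was higher in tKO cells, the 1 call among 9 tested members, against a background of 2.02% of tested genes called higher. Control DM3 libraries had 55.3, 57.3, 77.6 and 83.4 FPKM, and tKO DM3 libraries had 161, 182, 196 and 215 FPKM. The lowest tKO library was thus well above the highest control library, and the tKO mean was 2.75-fold higher. The difference was 1.46 (SE 0.17, 95% interval 1.10 to 1.83, limma adjusted p = 8.37e-05). It was 1.59 within BR1 and 1.34 within BR2, and the call held in all 32 alternatives tried, with adjusted p between 3.52e-07 and 0.0176.

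In GM, Tpm4 was at 409, 394, 435 and 489 FPKM in control and at 445, 411, 675 and 628 FPKM in tKO cells. These ranges overlapped, and the difference of 0.29 (SE 0.17) had an adjusted p of 0.398. Both genotypes lost Tpm4 on differentiation, control cells by 2.66 (SE 0.17, adjusted p = 4.75e-09) and tKO cells by 1.49 (SE 0.17, adjusted p = 1.78e-06). The control mean fell 6.31-fold and the tKO mean 2.86-fold. The test of that contrast, the genotype by stage interaction, gave 1.17 (SE 0.24) with an adjusted p of 0.0578. It was past the threshold in 6 of 31 alternatives, including the fits with the tag as a replicate block. The interaction was called for 0 of 9 members, with 0.254% of all tested genes called and 1278 genes at an unadjusted p under 0.05, and Tpm4 alone of the members was under that unadjusted value.

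Within the tropomyosin family, Tpm4 supplied 11.6% ± 2.5 (SD, n = 4) of the summed FPKM of Tpm1 to Tpm4 in control DM3 and 24.8% ± 4.8 in tKO DM3. The library values were 9.31% to 14.5% and 19.2% to 30.6%. In GM the share was 33.1% ± 1.1 in control and 30.9% ± 2.0 in tKO cells. Tpm3, also used in non-muscle filaments, was higher in tKO DM3 by 0.65 (SE 0.12, adjusted p = 0.00480), at 93.8 ± 15.6 FPKM against 59.0 ± 5.3 FPKM in control DM3. Tpm1 was higher in tKO GM by 0.81 (SE 0.14, adjusted p = 0.0044). By the same search, the longest 3′ UTR of Tpm3 held 1 of the 8-base matches, that of Tpm2 held 1 match to ACATTCC, and that of Tpm1 held no match. Each tropomyosin gene makes several isoforms, which gene-level FPKM does not separate.

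**Figure D3:**
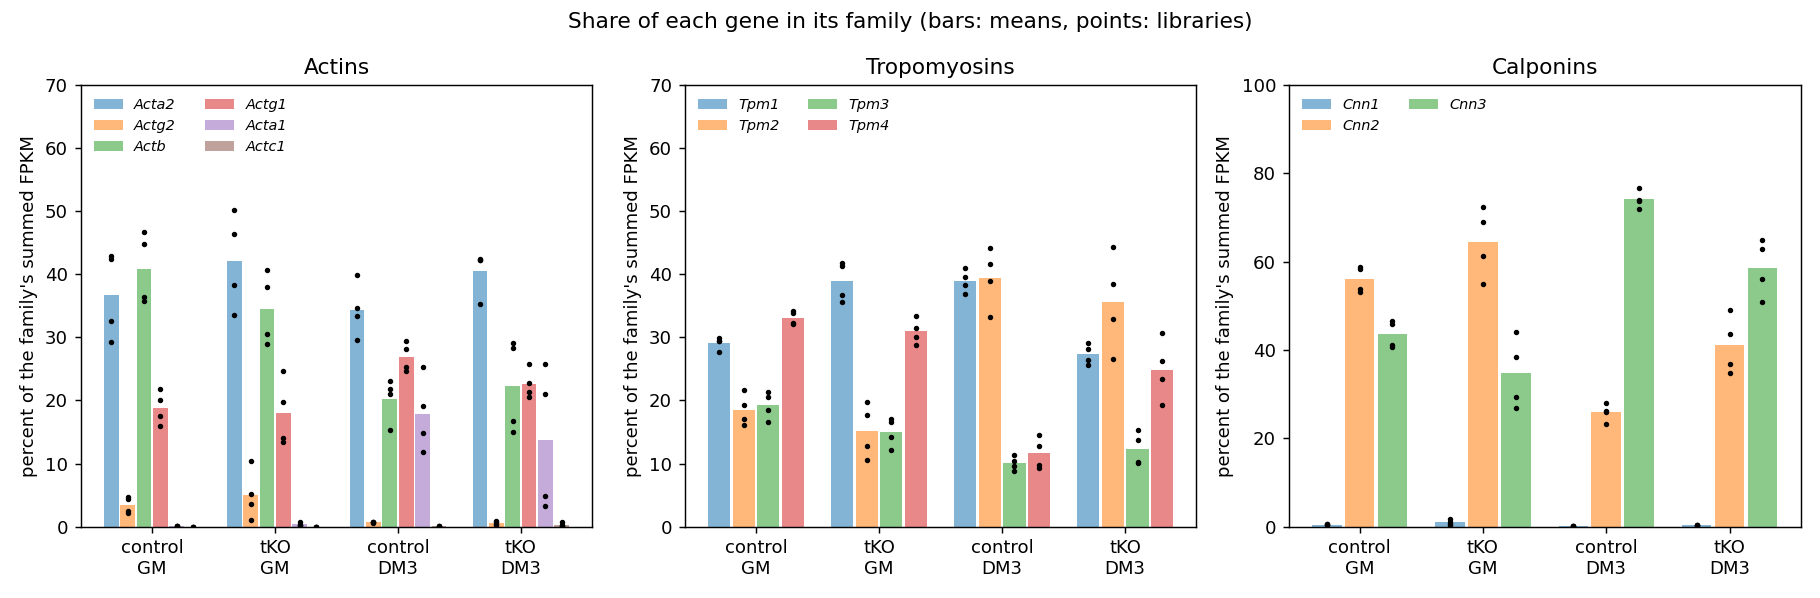
Share of each gene in the summed FPKM of its family (actins, tropomyosins, calponins), in percent, by group; bars are means of 4 libraries and points single libraries. In DM3 Tpm4 takes 9.31% to 14.5% of tropomyosin in control libraries and 19.2% to 30.6% in tKO libraries, and Cnn2 takes 23.2% to 28.0% of calponin against 34.7% to 49.1%.

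No other member passed in DM3 in the main fit. Cnn2 came next. It had DM3 values of 93.0, 88.8, 120 and 108 FPKM in the control lines and of 144, 161, 147 and 158 FPKM in the clones, with no overlap. Its difference of 0.58 (SE 0.19, 95% interval 0.18 to 0.98) had an adjusted p of 0.114. Cnn2 was called in 2 of 32 alternatives, each with the tag as a replicate block. Among the 3 calponin genes Cnn2 held 25.8% ± 2.0 (SD, n = 4) of the summed FPKM in control cells at DM3 and 41.1% ± 6.5 in tKO cells. The rest was almost all Cnn3, at 74.1% ± 2.0 and 58.7% ± 6.4. The share of Cnn2 depends on the level of Cnn3 as well, so it does not measure Cnn2 alone. By the search above, the longest 3′ UTR of Cnn3 also held 1 match to ACATTCC. Myl9 was at 1.30, 7.49, 3.14 and 8.63 FPKM in tKO DM3, each above the highest control DM3 value of 1.26 FPKM. Its difference of 1.52 (SE 0.58, 95% interval 0.29 to 2.74) had an adjusted p of 0.188, and without tKO clone 1 it was 2.29 with an adjusted p of 0.0111. Without tKO clone 2 instead, the Myl9 difference was 0.74 and was not called. For Acta2 the value was 0.53 (-0.13 to 1.18, adjusted p = 0.410), and for Myh9 0.06 (-0.19 to 0.31, adjusted p = 0.854). Tagln, with a 7-base match, had a DM3 difference of 0.26 (SE 0.49, adjusted p = 0.844).

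In GM, limma called none of the 9 tested members between genotypes, with 2.06% of all tested genes called in either direction. At an unadjusted p under 0.05 there were 4, namely Cnn1, Cnn2, Tagln and Myl9, and voom on the fragment numbers also called 0. The members' values were mostly on the higher side in tKO cells (8 of 9 positive, median 0.54, beside -0.01 over all tested genes). Myl9 was highest with 1.45 (SE 0.58, adjusted p = 0.202), followed by Tagln with 1.18 (SE 0.49, adjusted p = 0.221) and Cnn1 with 1.04 (SE 0.39, adjusted p = 0.172). Acta2 differed by 0.54 (SE 0.31, 95% interval -0.11 to 1.20). The library of tKO clone 1 BR1 was the lowest of its group for Acta2, Actg2, Tagln, Cnn1, Myl9 and Lmod1. Without it Cnn1 (1.44, adjusted p = 0.0471) and Myl9 (2.08, adjusted p = 0.0472) were called, and without clone 1 altogether they were 1.69 (adjusted p = 0.0143) and 2.29 (adjusted p = 0.0204). Without clone 2 instead, Cnn1 was at 0.39 and Myl9 at 0.60, and neither was called. Cnn2 was called without tKO clone 2 BR1, at 0.69 with an adjusted p of 0.03, and with the tag within each stage as a replicate block.

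In GM, members were also separated by the replicate tags. Averaged over genotypes, 5 of 9 were higher in BR2 than in BR1 in GM, against 1.42% of all tested genes called higher. This comparison was added after the values had been seen. The calls were Acta2 by 1.01 (SE 0.14, adjusted p = 0.00377), Cnn2 by 0.53 (SE 0.08, adjusted p = 0.00637), Tagln by 1.45 (SE 0.28, adjusted p = 0.0182), Tpm4 by 0.40 (SE 0.08, adjusted p = 0.0232) and Actg2 by 2.02 (SE 0.50, adjusted p = 0.0496). Leaving out single libraries left 2 to 5 called. Acta2 and Cnn2 passed in all 21 alternatives, Tagln in 16, Tpm4 in 15 and Actg2 in 6. The counts fell to 2 or 3 without any one of the 4 control GM libraries, without tKO GM clone 1 BR1 or without tKO GM clone 1 BR2.

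The tags were also compared within each genotype. In tKO GM alone, 5 of 9 members were higher in BR2, with 1.51% of all tested genes called higher. There Actg2 was 6.33-fold higher in BR2, Tagln 3.96-fold, Acta2 2.54-fold and Cnn2 1.87-fold. In control GM alone 0 of 9 passed in limma, with 0% of all tested genes called and 2 of the members (Acta2 and Tagln) at an unadjusted p under 0.05. The control folds were 2.27 for Actg2, 1.91 for Tagln, 1.60 for Acta2 and 1.12 for Cnn2. The test of whether the genotype difference itself changed with the tag called 0 of 9 members, with 0.0169% of all tested genes called and 4 members at an unadjusted p under 0.05. Its values were positive for all 9, from 0.41 to 1.68.

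Genotype differences in GM were read separately by tag. Within BR1, tKO minus control was 0.21 for Acta2, 0.65 for Tagln, 0.15 for Cnn2, 0.09 for Tpm4 and -0.25 for Actg2. Within BR2 the values were 0.88 for Acta2, 1.71 for Tagln, 0.89 for Cnn2, 0.50 for Tpm4 and 1.42 for Actg2. Fitted with limma on BR2 libraries alone, 2 against 2 in each stage, Cnn2 (adjusted p = 0.0148) and Tagln (adjusted p = 0.00370) were called. Of 11832 tested genes, 207 were called in that fit, 71 of them higher in tKO cells. On BR1 alone no member was called, but only 17 genes were, with 0 of them higher. The lack of a member call in BR1 is thus not particular to the members. Myh9, Lmod1 and Actg2 had opposite signs within BR1 and within BR2.

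**Figure D4:**
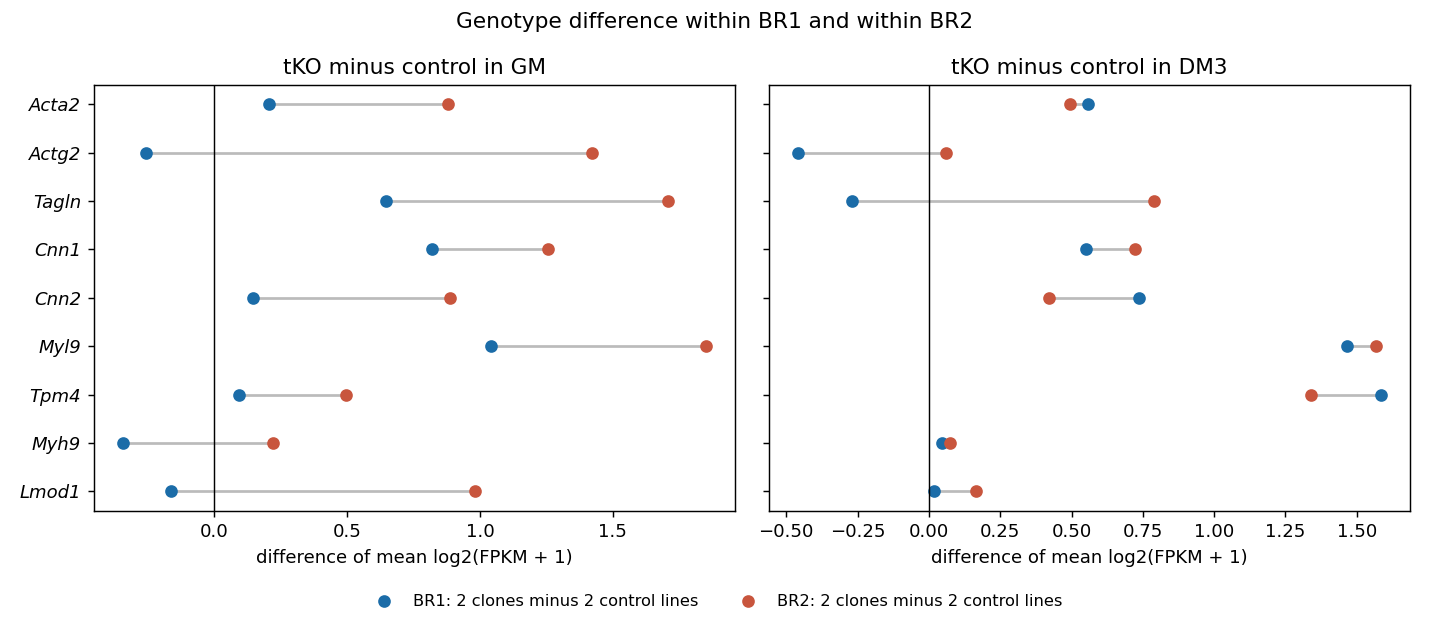
Genotype difference (tKO minus control, mean log2(FPKM + 1)) within BR1 (blue) and within BR2 (red) for the 9 tested genes in GM and DM3; each point compares 2 clones with 2 control lines. In GM every red point lies to the right of its blue point, with differences from 0.41 to 1.68 between them, while in DM3 Tpm4 stays at 1.59 and 1.34.

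In DM3 the tags differed for 1 of 9 members, Tpm4, which was higher in BR2 by 0.38 (SE 0.08, adjusted p = 0.0171), with 9.06% of all tested genes called higher. Scaling by median-of-ratios took this to 0.25 (adjusted p = 0.0664), and it was not called without control DM3 line 1 BR1, line 2 BR1 or line 2 BR2 (adjusted p 0.0642, 0.0626 and 0.0809). Of the skeletal counterparts, 4 of 10 were lower in BR2 in DM3, as were 2.96% of all tested genes, among them Mylpf by 0.87 (adjusted p = 0.0187). Their part in the Tpm4 difference between tags was not tested.

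The clones also differed among themselves. Clone 2 was above clone 1 by 1.62 (SE 0.47, adjusted p = 0.0683) for Myl9, 1.55 (SE 0.66, adjusted p = 0.200) for Actg2 and 0.93 (SE 0.34, adjusted p = 0.137) for Cnn1, averaged over stages. None of the 9 passed in limma, with 5.41% of all tested genes called and 3 members at an unadjusted p under 0.05. With the tag as a replicate block 3 of 9 passed, among 912 of 11832 tested genes called. With the tag within each stage as a block 4 passed, among 1671 genes called. Without tKO GM clone 1 BR2, or without tKO DM3 clone 1 BR2, 2 members passed (Myl9 with Actg2, and Myl9 with Cnn1). By contrast Tpm4 differed between clones by 0.02, with a 95% interval of -0.40 to 0.44. Between the control populations the members differed by -0.14 to 0.18, with 0 of 9 called, 0% of all tested genes called and 0 members at an unadjusted p under 0.05.

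Of 20 listed regulators upstream of these genes, 19 were tested, and 0 passed between genotypes in GM or DM3. Over all tested genes 2.06% passed in GM, and in DM3 2.02% were called higher and 1.36% lower. At such shares a count of 0 among 19 does not set the list apart. Srf had 31.9 ± 4.0 (SD, n = 4) FPKM in control GM and 15.9 ± 2.0 in control DM3, a fall of 0.96 (adjusted p = 8.26e-05). In tKO cells it went from 38.9 ± 10.2 to 16.0 ± 2.1 FPKM, a fall of 1.21 (adjusted p = 7.84e-06). Mkl1, at 32.8 ± 1.9 FPKM in control GM, fell by 0.32 in control cells (adjusted p = 0.0418), with -0.12 in tKO cells (adjusted p = 0.457). Mkl2 was at 5.98 to 7.81 FPKM on average in the 4 groups and passed in neither genotype. Myocd, the coactivator specific to smooth and cardiac muscle, had 2 fragments in all 16 libraries together and was at 0 in 14 of them. In control cells 5 regulators rose and 6 fell with stage, and in tKO cells 7 rose and 5 fell, out of 19. Over all tested genes 23.2% rose and 38.3% fell in control cells, and 24.9% rose and 36% fell in tKO cells. Tgfb2, a growth factor ligand, rose by 1.71 (SE 0.25, adjusted p = 1.71e-05) in control cells.

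Promoters were listed by RefSeq for 7 of the 10 members. Srf binds CArG boxes. The 250 bases before each start were searched on both strands for the exact box CCWWWWWWGG, where W is A or T. It was found for Cnn2, 56 bases before the start (50 bases shown, chr10:79988524-79988573, plus strand), and for Myl9, 161 bases before the start (chr2:156775283-156775332, plus strand). The build is GRCm38.p6, and capitals mark the box:
Cnn2: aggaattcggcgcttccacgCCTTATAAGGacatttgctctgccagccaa
Myl9: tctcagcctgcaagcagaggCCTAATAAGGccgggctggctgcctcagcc
The box was present in 1.425% of 8491 tested genes with a listed promoter. The windows of Acta2, Cnn1, Tpm4, Myh9 and Lmod1 held no such letters. This says nothing about boxes outside this window, or about boxes inside it that depart from the exact letters. Actg2, Tagln and Myh11 are named only.

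Genes that respond to Srf, its coactivators or Yap showed no genotype call (0 of 12 tested in either stage). Over all tested genes 2.06% were called in GM, and in DM3 2.02% higher and 1.36% lower. At such shares a count of 0 among 12 does not set the list apart. The list's median genotype difference was 0.33 in GM and -0.003 in DM3, beside -0.01 and 0.008 over all tested genes. With stage, 1 rose and 3 fell in control cells, and 1 rose and 4 fell in tKO cells, where 38.3% and 36% of all tested genes fell, so these counts set the list apart in neither genotype. Ctgf, a matricellular protein gene, fell by 2.67 (SE 0.74, adjusted p = 0.00501) in control and by 4.08 (SE 0.74, adjusted p = 0.000167) in tKO cells. Ankrd1 fell by 1.34 in control cells and fell by 2.09 in tKO cells, with adjusted p of 0.00784 and 0.000247. Ctgf and Ankrd1 were also the 2 of the 12 that were higher in BR2 in GM, with 1.42% of all tested genes called higher. The differences were 1.87 (limma adjusted p = 0.0155) and 1.12 (adjusted p = 0.0328). Both the comparison of tags and the naming of these 2 genes came after the values had been seen. The members Acta2, Cnn2, Tagln, Tpm4 and Actg2 were higher in the same comparison. The relation of Ctgf and Ankrd1 to the members was not tested.

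Of 20 other non-muscle actomyosin genes listed, 19 were tested. With stage 11 fell and 2 rose in control cells, and 13 fell and 2 rose in tKO cells, beside falls of 38.3% and 36% of all tested genes. Their median difference was -0.71 in control and -0.80 in tKO cells, beside -0.15 and -0.12 over all tested genes. Actb, cytoplasmic beta actin, fell by 2.31 (SE 0.25, adjusted p = 1.15e-06) in control cells. By genotype, Tpm1 was called in GM, where 2.06% of all tested genes were called in either direction. Tpm3 and Cfl1 were called in DM3, where 2.02% were called higher. Cfl1, the actin-severing cofilin, averaged 690.5 ± 52.5 FPKM in control cells and 1045 ± 199 FPKM in tKO cells at DM3 (0.58, SE 0.15, adjusted p = 0.0372). No match was found in the longest 3′ UTR of Cfl1.

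Of 20 further smooth muscle genes listed, 14 were tested. Of these, 1 (Synm) had GM means under 0.5 FPKM in both genotypes and passed the filter only through DM3. Its direction with stage was thus fixed in advance and supports nothing. In control cells 6 rose and 3 fell with stage, beside 23.2% and 38.3% of all tested genes, and in tKO cells 6 rose and 5 fell, beside 24.9% and 36%. Des, the intermediate filament protein desmin that skeletal muscle also uses, rose by 3.07 (SE 0.42, adjusted p = 1.27e-05) in control cells. In DM3, Synpo2 and Pdlim7, both Z-disc or actin-bundling adaptors, were lower in tKO cells, as were 1.36% of all tested genes. Synpo2 was at 6.25 ± 1.85 FPKM in control and 2.66 ± 1.14 in tKO (-1.01, SE 0.25, adjusted p = 0.0308), and Pdlim7 at 31.3 ± 1.0 and 20.4 ± 2.5 (-0.60, SE 0.14, adjusted p = 0.0213). Tpm4 was higher in those same libraries.

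Markers of other cell types were read beside these results. Of 10 smooth muscle and pericyte markers, Myocd, Rgs5, Kcnj8, Abcc9, Itga8, Kcnmb1 and Pln were under 0.5 FPKM in every library. The list's summed level was in GM 33.8 to 41.4 FPKM for control and 23.6 to 37.6 FPKM for tKO libraries, and in DM3 46.4 to 58.6 FPKM for control and 74.3 to 84.0 FPKM for tKO libraries. This sum rests on Smtn, Notch3 and Cspg4. In DM3, Notch3 was at 17.2 to 23.4 FPKM in control and 42.1 to 50.6 in tKO libraries, and Cspg4 at 4.65 to 5.55 and 8.15 to 9.54, both without overlap, while Smtn overlapped (23.9 to 31.9 and 17.8 to 31.4). In GM the Notch3 median was lower in tKO libraries (6.21 FPKM) than in control libraries (11.1 FPKM), opposite to DM3. The Cspg4 median in GM was higher in tKO libraries (7.09 against 5.28 FPKM). No test of either gene is given here, nor the share of all genes without overlap. The lack of overlap thus does not set these genes apart. The part of Notch3 and Cspg4 in the Tpm4 difference was not tested. The 8 endothelial markers were all under 0.5 FPKM in every library and summed to at most 0.916 FPKM. For the 10 fibroblast markers the sum was in GM 873 to 1281 FPKM for control and 432 to 942 FPKM for tKO libraries, and in DM3 2312 to 3010 FPKM for control and 2169 to 3210 FPKM for tKO libraries, with Lum, Thy1 and Fap under 0.5 FPKM in every library. The 6 adipocyte and 6 immune markers summed to at most 15.3 and 4.08 FPKM.

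As a description of likeness, the 5 tested genes outside the members whose log2(FPKM + 1) correlated best with Acta2 over the 16 libraries were Rsu1 (r = 0.968), 1700012B09Rik (0.968), Itpripl2 (0.963), Fgd3 (0.961) and Apol10b (0.961). The stage difference and the libraries are shared by all of them. Among the members, Cnn2 (0.948), Myl9 (0.945), Cnn1 (0.929), Tagln (0.926), Actg2 (0.920) and Tpm4 (0.904) were closest to Acta2, and Myh9 (0.843) and Lmod1 (0.600) least. Within the 8 GM libraries r was 0.982 for Tagln, 0.956 for Tpm4 and 0.903 for Actg2. Within the 8 DM3 libraries it was 0.824 for Tpm4 but 0.231 for Tagln and 0.305 for Actg2.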

How the data were processed

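Poly(A) RNA of 16 C2C12 libraries (4 groups of 4) was analysed from 1 table of FPKM values that the authors deposited, with gene lengths and positions. The submitters' processing notes name STAR, DESeq and mm10 without roles or versions. Strand use, read length and the annotation release are not given in the sources used here, so overlapping genes are uncertain. Per the values, FPKM times gene length gave whole fragment numbers (within 0.05) for 100% of values. From these, depth was 22642563 to 56585952 fragments. Groups, lines and tags came from the sample titles. A group-means model on log2(FPKM + 1) was fitted to all 16 libraries with limma 3.58.1 in R 4.3.3 (trend and robust moderation). It covered 11832 genes whose FPKM averaged 0.5 or more, with Benjamini-Hochberg adjustment and a threshold of 0.05. Fold changes on this scale understate changes of low genes. Lines were compared in a fit of 8 line-by-stage means. The comparisons of BR2 with BR1 (8 group-by-tag means) and the fits on 1 tag alone were chosen after seeing the data. Tested on simulated data for tKO against control in DM3 (11832 genes, 200 changed), the fit recovered 93% of 2-fold and 100% of 4-fold changes. Of its calls there, 5.85% were false. The simulated libraries were independent, with the same spread beyond counting noise for every gene and no line, clone or tag effects. These rates need not hold for genes that vary more, and an uncalled member is not thereby unchanged. Of the table's identifiers, 97.8% were found in GENCODE release M21 (GRCm38), the build of the coordinates given. The members and the gene lists were chosen with earlier results of these data known. Named beside the members were Srf, Myocd, Mkl1 and Mkl2, up to 3 called genes of a list with the largest change in the comparison described, and the 5 genes most like Acta2. Genes named outside that rule (Acta1, the tropomyosins, Ctgf, Ankrd1 and markers) were chosen after their values were seen or belong to a family described. Alternatives were pseudocount 0.1, no filter, a filter of 5 FPKM, median-of-ratios scaling, voom on fragment numbers, 3 replicate blocks, a random effect for line, averages per line, fits restricted to the libraries compared, and leaving out each library or line. Python 3.11.15, numpy 2.4.6, pandas 2.3.3 and matplotlib 3.10.9 were used.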

Additional observations from a re-analysis of the deposited data

How the results depend on the processing

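With the tag number as a replicate block, limma called 2 members between genotypes in DM3 (Tpm4 and Cnn2), 1 in the interaction (Tpm4, adjusted p = 0.00262) and 3 between the clones. With the tag within each stage as a replicate block the counts were 2, 1 and 4, and 1 in GM (Cnn2, adjusted p = 0.0395). The blocks, including line and tag together for the stage comparisons, changed no other member count. The labels state no pairing. Same-tag libraries of the 2 genotypes had deviations with a mean r of 0.218 (16 pairs, -0.224 to 0.558, 12 of them over 0.1), and same-line, same-tag libraries of the 2 stages one of 0.2 (8 pairs, 6 over 0.1). Not every pair was over 0.1, and the main fit has no term for the tag. These correlations are not a test of whether a block is needed. Tags did differ, with 404 of 11832 tested genes called between them in GM and 1422 in DM3. Without a block, this difference is part of the spread that the p-values measure. With a filter of 5 FPKM, which drops Cnn1 and Lmod1, Tpm4 was the 1 interaction call (adjusted p = 0.0498). On BR2 libraries alone 2 members were called in GM, among 207 of 11832 tested genes. With median-of-ratios scaling 0 members differed between tags in DM3. The cause of these shifts was not tested. Leaving out a library or line gave 0 to 2 calls in GM, 1 to 2 in DM3, 0 to 1 in the interaction, 0 to 2 between clones, 2 to 5 between tags in GM and 0 to 3 in DM3. The stage falls of the 8 called members kept their direction in all 526 alternatives and were called in 523; the exceptions were Acta2 and Cnn1 in control cells without control line 1 and Cnn1 without control line 2. A fit that leaves 1 library in a group assumes that it varies like the others.

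Of 2027 alternative values, 70 had the opposite sign, 54 of them with a library or line left out. All belong to members not called in that comparison. Values of opposite sign were, for the interaction, 0.16 (pseudocount 0.1) and 0.25 (voom) for Cnn1, 0.35 and 0.18 (BR1 alone) for Acta2 and Lmod1, and -0.47, -0.15 and -0.29 (BR2 alone) for Cnn2, Myh9 and Myl9. On BR1 alone, genotype values were -0.16 for Lmod1 and -0.25 for Actg2 in GM and -0.27 for Tagln in DM3. On BR2 alone they were 0.22 for Myh9 in GM and 0.058 for Actg2 in DM3, with 0.13 for the control stage difference of Lmod1. Median-of-ratios scaling gave 0.081 for that difference, -0.0021 for Cnn2 between clones and -0.014 for Myh9 between tags in DM3. Leaving out a library or line, genotype values in GM ranged from -0.13 to 0.015 for Myh9, -0.016 to 0.90 for Lmod1 and -0.15 to 1.38 for Actg2. In DM3 they ranged from -0.065 to 0.58 for Tagln, -0.37 to 0.55 for Lmod1 and -1.01 to 0.61 for Actg2, and the control stage difference of Lmod1 from -0.26 to 0.086. Interaction values ranged from -0.81 to 0.00074 for Cnn1, -0.11 to 0.22 for Cnn2, -0.28 to 0.22 for Acta2, -0.80 to 0.0091 for Lmod1 and -0.56 to 0.62 for Myl9. Between clones the ranges were -0.22 to 0.24 for Cnn2, -0.16 to 0.054 for Myh9, -0.23 to 0.52 for Acta2, -0.22 to 0.90 for Tagln and -0.13 to 0.18 for Tpm4. Between tags in DM3 they were -0.26 to 0.90 for Actg2 and -0.0052 to 0.94 for Myl9. The cause was not tested. Fragment numbers limit precision most for Myh11 (0 to 42 fragments) and, in DM3, for Cnn1 (7 to 125) and Myl9 (23 to 303).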
